A study of Mus musculus with 33 samples.

Results

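Binding sites of ING1 were compared with binding sites of Wdr5 in growing C2C12 myoblasts, a mouse muscle precursor cell line. The members are 2 ING1 replicate lists and 3 Wdr5 replicate lists of peaks, 5 of the 33 samples of the series, chosen by the factor and the cell state in their titles, together with the list that the authors pooled for each factor. On the 19 autosomes the pooled lists held 8114 ING1 and 58123 Wdr5 peaks, 66237 of the 396699 peaks in the 9 pooled or single lists of the series. The series mapped chromatin proteins by chromatin immunoprecipitation and sequencing (ChIP-seq), in which DNA held by an antibody is sequenced and stretches rich in fragments are listed as peaks. Its title concerns H3K4 mono-methylation and how chromatin readers divide between sites.

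ING1 recognises histone H3 that is trimethylated at lysine 4 (H3K4), through its PHD finger, and is a subunit of Sin3A histone deacetylase complexes. Wdr5 is a WD40-repeat protein that forms part of the core of the MLL family complexes, the enzymes that place methyl groups on H3K4. The pair therefore sets a protein that reads the mark beside a subunit of the enzymes that write it, and trimethylated H3K4 is known mainly from active promoters.

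The 2 factors were not pulled down in the same way. ING1 carried a Flag tag, was expressed from a pBabe-puro retrovirus in a stable puromycin-selected C2C12 line and was precipitated with an antibody to Flag, so its peaks are those of an added, tagged protein. Wdr5 was precipitated from unmodified C2C12 cells with an antibody to the protein itself. Both sets of cells were growing in 10% fetal bovine serum at about 40% confluency, and chromatin was sheared to about 250 bp. Other myoblast lists used beside them were Menin and MLL1, each pooled by the authors from replicates, and LSD1 and MLL3, each a single list without replicates. Menin works within MLL1 complexes. Both MLL1 and MLL3 are H3K4 methyltransferases, and LSD1 takes methyl groups off H3K4. For MLL1 the title and antibody were followed, since its source label names Menin. Lists of ING1, Sin3A and LSD1 in myotubes came from cells differentiated for 96 h in 2% horse serum. The titles of the myotube ING1 samples name the Flag tag too. The labels do not state whether replicates were separate cultures, so the p-values below cover the spread between these samples alone, and that spread may be technical. The cell type was taken from the labels, because peak lists hold no expression by which to check it.

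ING1 replicate 1 stood apart, with 427 autosomal peaks against 5496 in ING1 replicate 2. The Wdr5 replicates 1, 2 and 3 held 9319, 4981 and 5024 peaks. ING1 averaged 2961.5 ± 3584.3 peaks (SD, n = 2) and Wdr5 6441.3 ± 2492.2 (SD, n = 3), and the 2 groups overlapped (exact two-sided permutation test over the 10 arrangements, p = 0.60, adjusted p = 0.72). With 2 lists against 3 the smallest p this test can give is 0.2. Median peak widths were 518 and 640.0 bp in the ING1 replicates and 640.0, 584 and 590.0 bp in the Wdr5 replicates. Their means of 579 ± 86.3 bp (SD, n = 2) and 605 ± 30.8 bp (SD, n = 3) did not differ beyond the spread (exact permutation p = 0.80, adjusted p = 0.80), and without ING1 replicate 1 the difference turned from -25.7 to 35.3 bp. The pooled ING1 peaks had a median width of 727 bp and covered 6.75 Mb, and the pooled Wdr5 peaks had a median of 609 bp and covered 45.2 Mb. The lists hold no read counts, so the sequencing depth behind them is unknown.

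**Figure D1:**
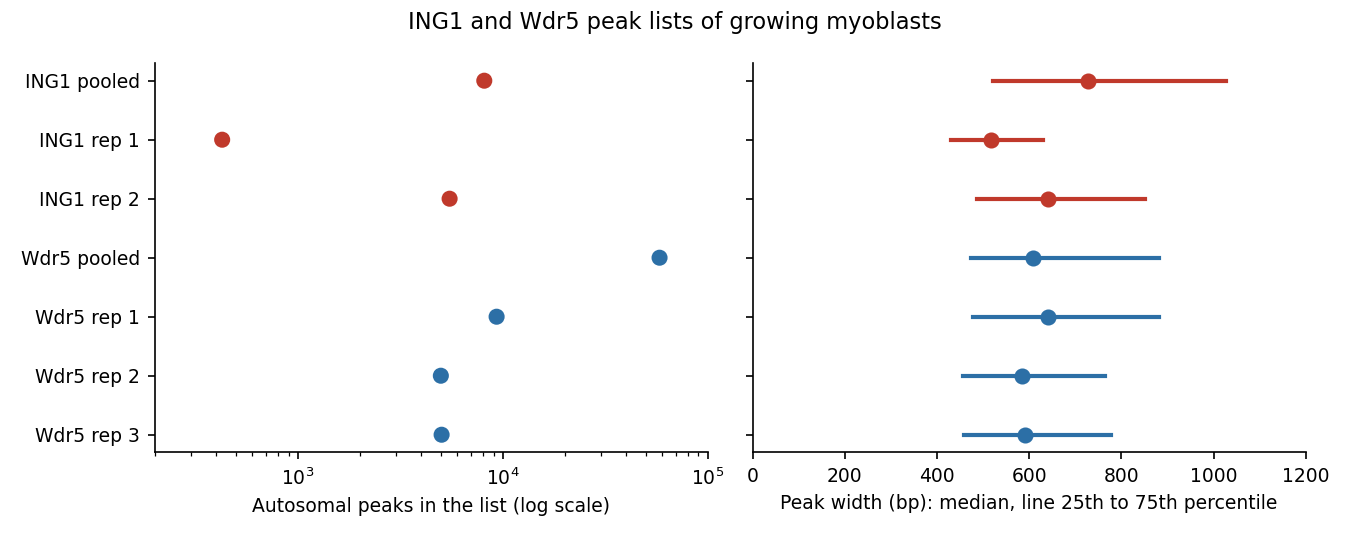
Autosomal peaks per list on a log scale (left) and peak width in bp with the median as a point and the 25th to 75th percentile as a line (right), for the pooled and replicate lists of ING1 (red) and Wdr5 (blue). ING1 replicate 1 holds the fewest peaks, 427, and the pooled Wdr5 list the most, 58123, while all 7 medians lie between 518 and 727 bp.

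Most ING1 sites were also Wdr5 sites. Of the 8114 pooled ING1 peaks, 6823 (84.1%, exact binomial 95% interval 83.3 to 84.9) overlapped a pooled Wdr5 peak by 1 bp or more. Binomial intervals here and below cover counting error only. In the replicate lists of ING1, 92.7% of replicate 1 and 90.3% of replicate 2 lay at pooled Wdr5 peaks (91.5% ± 1.74, SD, n = 2). When single lists of both factors were set against each other the share was lower, between 44.7% and 63.0% over the 6 pairs of an ING1 with a Wdr5 replicate.

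The share rose with the number of ING1 replicate lists that held the peak. Wdr5 lay at 74.4% of the 3350 pooled ING1 peaks that met no ING1 replicate list, at 90.5% of the 4426 that met 1 list, and at 95.6% of the 338 that met both (intervals 72.9 to 75.9, 89.6 to 91.4 and 92.8 to 97.5). The ING1 peaks away from Wdr5 were therefore found more often among those seen only after pooling. In the same direction their median width grew from 555 through 866 to 1292 bp, so support and width moved together.

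The reverse share was small in the pooled lists and larger in the replicates. Of the 58123 pooled Wdr5 peaks, 6391 (11.0%, interval 10.7 to 11.3) overlapped a pooled ING1 peak. The same ING1 list lay at 43.1%, 61.2% and 61.7% of the peaks of Wdr5 replicates 1, 2 and 3 (55.3% ± 10.6, SD, n = 3), so the longest replicate list had the lowest share. Which ING1 list was used mattered more than which Wdr5 list: ING1 replicate 1 lay at 2.94% to 5.04% of the Wdr5 replicate peaks, and ING1 replicate 2 at 32.1% to 49.1%. With the replicate lists of each factor joined, 33.4% of Wdr5 regions met ING1, and 2.98% without ING1 replicate 2. With pooled peaks in every replicate list of their factor the share was 5.60%, a number limited by the 338 ING1 peaks left to meet 2571 Wdr5 peaks.

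The 5 replicate lists together marked 13013 separate regions. Of these, 3765 were in at least 1 ING1 and 1 Wdr5 list, 1561 in ING1 lists alone and 7687 in Wdr5 lists alone. Both ING1 lists shared 341 regions, of which 288 held Wdr5, and all 3 Wdr5 lists shared 2560, of which 1556 held ING1. Only 140 regions were in all 5 lists, a number that the 427 peaks of ING1 replicate 1 limit.

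Centres of ING1 and Wdr5 peaks lay close but did not coincide. Each of the 6823 overlapping ING1 peaks was paired with the Wdr5 peak it shared most bases with. The centres were a median of 228 bp apart (25th to 75th percentile 100.5 to 436 bp), which is about the length of a sheared fragment. They lay within 100 bp in 24.9% of pairs, within 250 bp in 53.3% and within 500 bp in 80.3%. In 95.4% of pairs the ING1 centre lay inside the Wdr5 peak.

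Centres lay closer between Wdr5 replicates than between Wdr5 and ING1. The median distance was 164 to 184 bp in the 6 pairs of an ING1 with a Wdr5 replicate, and 98.0 to 112 bp in the 3 pairs of Wdr5 replicates, so the ranges did not overlap. The pairs share lists, and no test was made over them. The 2 ING1 replicates, however, lay 159 bp apart counted from replicate 1 (340 of its 427 peaks), just below the lowest ING1 to Wdr5 value. Counted from replicate 2 they lay 171 bp apart, within the ING1 to Wdr5 range. The offset between the factors was therefore close in size to the offset between the ING1 replicates, which rests on a single pair of lists with few peaks in ING1 replicate 1.

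**Figure D2:**
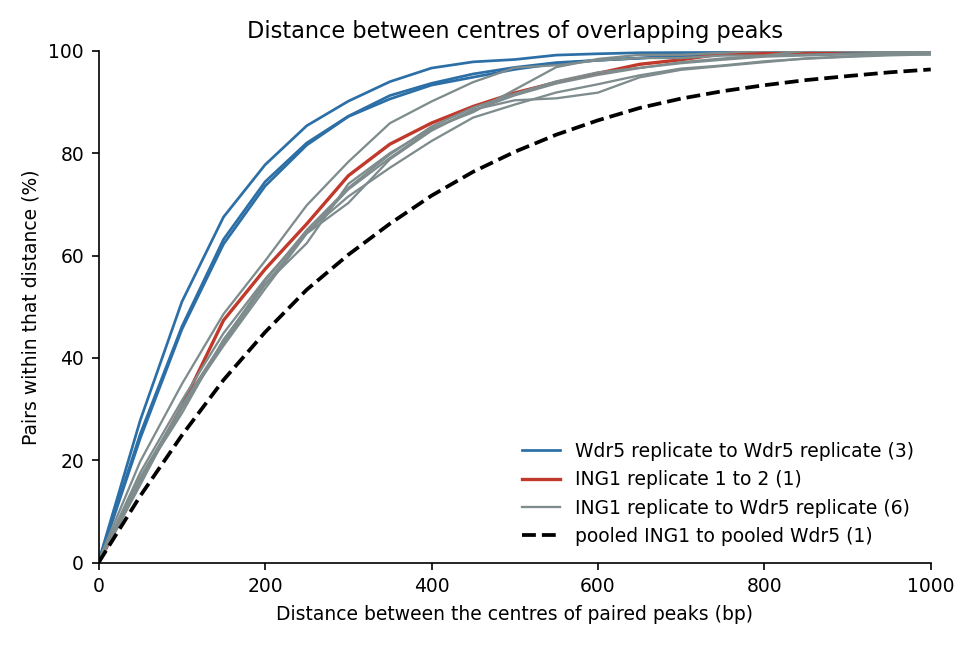
Share of overlapping peak pairs (%) whose centres lie within a given distance in bp, one line per pair of lists, with the number of lines in brackets. The 3 blue Wdr5 pairs lie highest, at 81.6% to 85.4% within 250 bp, the 6 grey ING1 to Wdr5 pairs reach 62.4% to 69.8% with the red ING1 pair among them at 66.2%, and the dashed pooled lists reach 53.3%.

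Distances from ING1 to other factors differed, with Menin and MLL3 the farthest. Pooled ING1 centres lay 158 bp from those of ING1 in myotubes, 190 bp from LSD1, 200 bp from MLL1, 403 bp from Menin and 458 bp from MLL3, each over the overlapping peaks. The 228 bp to pooled Wdr5 lay above the values for LSD1 and MLL1, but pooled ING1 centres were 176, 182 and 181 bp from those of Wdr5 replicates 1, 2 and 3, below both. The place of Wdr5 relative to LSD1 and MLL1 was thus not fixed, while Menin and MLL3 lay farther than Wdr5 with each of these Wdr5 lists. The distance also varied with the width of the partner, as given below for Wdr5, and the part of width in these values was not tested. From the Wdr5 side, MLL1 centres lay 239 bp and LSD1 centres 315 bp from those of their Wdr5 partners.

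At shared sites the pooled ING1 peak was the narrower of the pair. Its median width was 764 bp against 1515 bp for the Wdr5 partner, with a median ratio of 0.53 (25th to 75th percentile 0.36 to 0.76). ING1 was narrower in 6098 pairs (89.4%) and lay wholly inside Wdr5 in 4250 (62.3%). The opposite nesting, Wdr5 inside ING1, was seen in 210 pairs (3.08%), and the remaining 2363 (34.6%) overlapped across 1 edge.

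The ratio varied widely between the single lists. In the 6 pairs of replicates the median ratio was 0.53 with ING1 replicate 1 and Wdr5 replicate 1, and 1.04 with ING1 replicate 2 and either Wdr5 replicate 2 or 3, with a median over the 6 of 0.80. Pooled ING1 peaks were 1.01, 1.33 and 1.33 times as wide as the peaks of Wdr5 replicates 1, 2 and 3, so the direction turned when a single Wdr5 list replaced the pool. The lists hold no peak heights, and the part of depth and pooling in peak width was not tested.

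Offset in bp was larger in wider Wdr5 peaks. Only overlapping peaks were paired, so a wider Wdr5 peak allows a larger offset and part of this trend is set by the pairing. In Wdr5 peaks under 500 bp (170 pairs) the centres were 95 bp apart, in those of 1000 to 2000 bp (3626 pairs) 219 bp, and in those of 3000 bp or more (429 pairs) 668 bp. As a share of the distance from the Wdr5 centre to its edge these were 44.95%, 30.6% and 36.7%, without regard to side. The ratio of widths ran from 1.23 in the narrowest class to 0.27 in the widest, as ING1 widths rose less, from 518 to 985 bp. Since the classes were made by the Wdr5 width that divides this ratio, a fall is partly built in.

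Some Wdr5 peaks held several ING1 peaks. Of the 6391 Wdr5 peaks with ING1, 5756 met 1 ING1 peak, 595 met 2 and 40 met 3 or more. The 635 with at least 2 had a median width of 2130.0 bp against 1395 bp for those with 1, and neighbouring ING1 centres within them were a median of 975 bp apart. The Wdr5 peak with the most, 5 ING1 peaks, lay on chromosome 19 from 5835354 to 5849634 (mm9) and was also the widest of the list, at 14281 bp. It was singled out after its values were seen.

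The reverse arrangement was rarer. Of the ING1 peaks, 241 met 2 or more Wdr5 peaks, and in 55 of these (22.8%) the ING1 centre lay in the gap between Wdr5 peaks. ING1 peaks that met no Wdr5 peak were often still near one, at a median gap of 2.96 kb, and 311 of the 1291 (24.1%) had a Wdr5 peak within 500 bp. Wdr5 peaks without ING1 had a median gap of 88.8 kb to the nearest ING1 peak, and 749 of 51732 (1.45%) had an ING1 peak within 500 bp. The ING1 list holds 8114 peaks against 58123 of Wdr5, so gaps to it are longer anywhere and the directions cannot be compared. Whether 88.8 kb differs from the gap at other positions was not tested.

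Wdr5 peaks with ING1 were wider than those without. Their median widths were 1441 bp (25th to 75th percentile 1037 to 1950 bp) and 579 bp (461 to 769 bp), a ratio of 2.49. Of the 2191 Wdr5 peaks of 2 kb or more, 1485 (67.8%) held ING1. Across 10 classes of equal size by width, the share with ING1 stayed between 1.01% and 2.67% in the 6 narrowest, then went through 4.56%, 11.3% and 28.1% to 56.7% in the widest, 1420 to 14281 bp. A wider peak also offers more bases to overlap.

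In the replicate lists of Wdr5 the width ratio was smaller. It was 1.39, 1.19 and 1.19 in Wdr5 replicates 1, 2 and 3, above 1 in each. The difference also held among pooled peaks of equal support: with ING1 and without it the medians were 1029 and 558 bp where no Wdr5 replicate held the peak, and 1678 and 1414 bp where all 3 did.

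Support by Wdr5 replicates separated the classes too. ING1 lay at 3.30% of the 48298 pooled Wdr5 peaks that met no Wdr5 replicate list (exact binomial 95% interval 3.14 to 3.46). It lay at 30.6% of the 4944 in 1 list, 59.2% of the 2310 in 2 lists and 74.6% of the 2571 in all 3 (72.9 to 76.3). Of the Wdr5 peaks without ING1, 90.3% met no replicate list, against 24.9% of those with ING1. A Wdr5 peak without ING1 in the pooled list was thus mostly one that no single Wdr5 replicate listed, and contrasts between the classes are given below also for the peaks in all 3 lists.

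**Figure D3:**
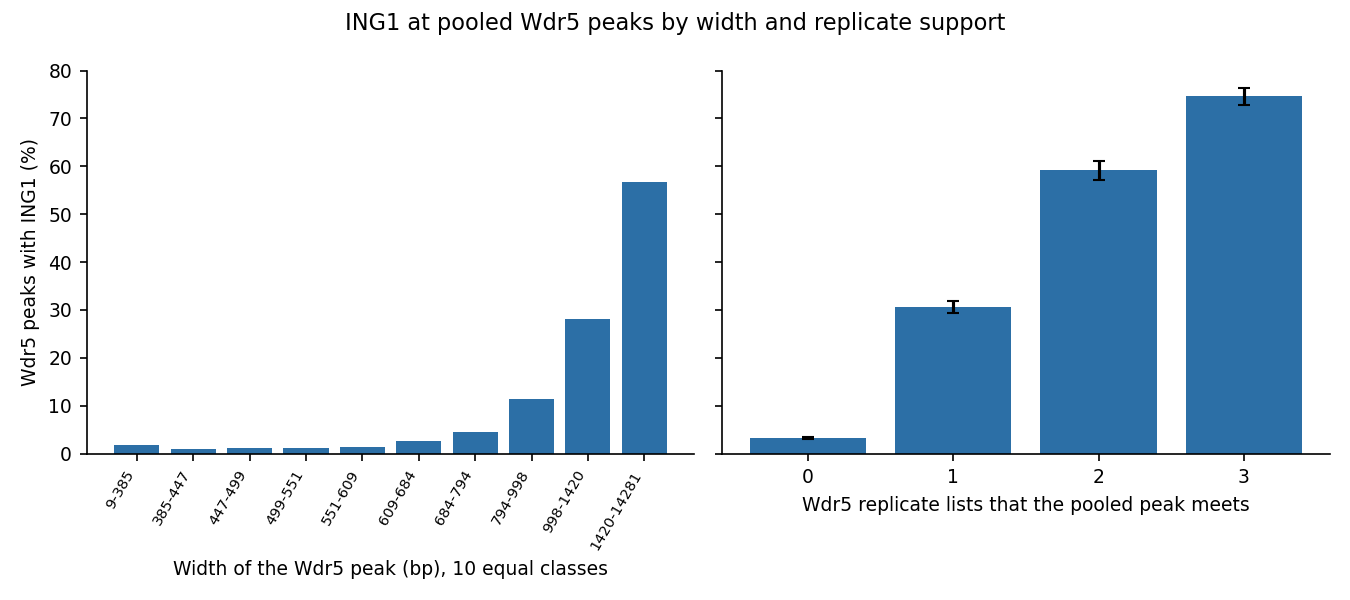
Share of pooled Wdr5 peaks that overlap a pooled ING1 peak (%), by width of the Wdr5 peak in bp in 10 classes of equal size (left) and by the number of Wdr5 replicate lists that the peak meets (right, bars with exact binomial 95% intervals). The share is under 3% in the 6 narrowest classes and 56.7% in the widest, and goes from 3.30% with no replicate list to 74.6% with all 3.

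Menin, the subunit of MLL1 complexes, lay at nearly all Wdr5 sites with ING1. It overlapped 29.3% of all pooled Wdr5 peaks, 92.6% of those with ING1 and 21.5% of those without. In Wdr5 replicates 1, 2 and 3 it lay at 94.0%, 94.4% and 93.6% of peaks with ING1 and at 56.0%, 69.7% and 69.9% of peaks without, so the 2 sets of values did not overlap. The difference was 28.8 ± 7.97 percentage points (SD, n = 3), well below the 71.1 points of the pooled lists. This spread is over Wdr5 lists alone, with the pooled Menin list. Menin replicates 1 and 2 lay at 79.9% and 78.4% of pooled Wdr5 peaks with ING1 and at 9.76% and 7.06% without. Among pooled peaks in all 3 Wdr5 lists Menin lay at 96.3% with and 82.1% without ING1. When ING1 was also limited to the 338 peaks in both of its lists the difference was 6.27 points. The class without ING1 then also held Wdr5 peaks at the other pooled ING1 peaks. Of the 2571 Wdr5 peaks in all 3 lists, 1918 met a pooled ING1 peak, so 6.27 is not a stricter form of the same contrast.

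MLL1, the methyltransferase of the same complex, overlapped 8.64% of all pooled Wdr5 peaks, 44.6% with ING1 and 4.20% without. In the 3 Wdr5 replicates the shares were 45.6%, 43.5% and 43.2% with ING1 against 17.1%, 22.0% and 21.9% without, a difference of 23.8 ± 4.08 points (SD, n = 3). Every value with ING1 was above every value without. These values used the pooled MLL1 list, and its replicates differed widely. MLL1 replicate 1 lay at 27.55% of pooled Wdr5 peaks with ING1 and 1.95% without, and replicate 2 at 4.91% and 0.14%. In the pooled peaks of all 3 Wdr5 lists MLL1 lay at 49.0% and 30.6%. With ING1 also limited to peaks in both of its lists, and the class without it mixed as for Menin, the difference was 14.1 points.

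LSD1, the demethylase, had the largest ratio between the classes of the 4 factors in the pooled lists. It overlapped 6.04% of all pooled Wdr5 peaks, 43.0% of those with ING1 and 1.47% of those without. The replicate values were 43.3%, 42.7% and 42.3% with ING1 and 8.69%, 15.1% and 15.8% without, a difference of 29.6 ± 4.39 points (SD, n = 3). In the peaks of all 3 Wdr5 lists they were 55.9% and 27.1%. The pooled difference of 41.5 points was 16.1 points where LSD1 had to cover the Wdr5 centre (16.7% against 0.57%). It was 19.9 points with peaks in every replicate list of both factors, where the class without ING1 was mixed as for Menin. LSD1 has a single list, and as for Menin and MLL1 the SD covers replicates of Wdr5 only.

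The pooled contrasts shrank when peaks were compared within classes of width but kept their direction. Averaged over 10 classes of Wdr5 width, and weighted by the peaks with ING1, the differences were 42.8 points for Menin, 29.9 for MLL1 and 34.3 for LSD1, and each was positive in 10 of 10 classes. The widest class spans 1420 to 14281 bp and holds 3293 of the 6391 peaks with ING1, so width was matched only loosely there. Within classes of Wdr5 replicate support, an alternative added after the data were seen, they were 35.7, 26.1 and 29.4 points. On single chromosomes all 3 differences were positive on 19 of 19, with the lowest of each on chromosome 7.

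MLL3, which is known for mono-methylation of H3K4 at enhancers, did not follow the others. It overlapped 22.0% of all pooled Wdr5 peaks, 26.4% with ING1 and 21.5% without. In Wdr5 replicates 1, 2 and 3 the differences were 0.81, 0.33 and -2.56 points (-0.47 ± 1.82, SD, n = 3), so no direction held beyond the spread. Among pooled peaks in all 3 Wdr5 lists it lay at 33.4% with and 29.3% without ING1, 4.17 points higher. Within classes of width the pooled difference of 4.93 points turned to -1.71, with the share higher at ING1 in 2 of 10 classes. Without regard to width it was positive on 19 of 19 chromosomes, by 0.60 to 10.7 points. When MLL3 was counted only where it covered the Wdr5 centre, also an added alternative, it was 9.01% with ING1 and 14.7% without.

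**Figure D4:**
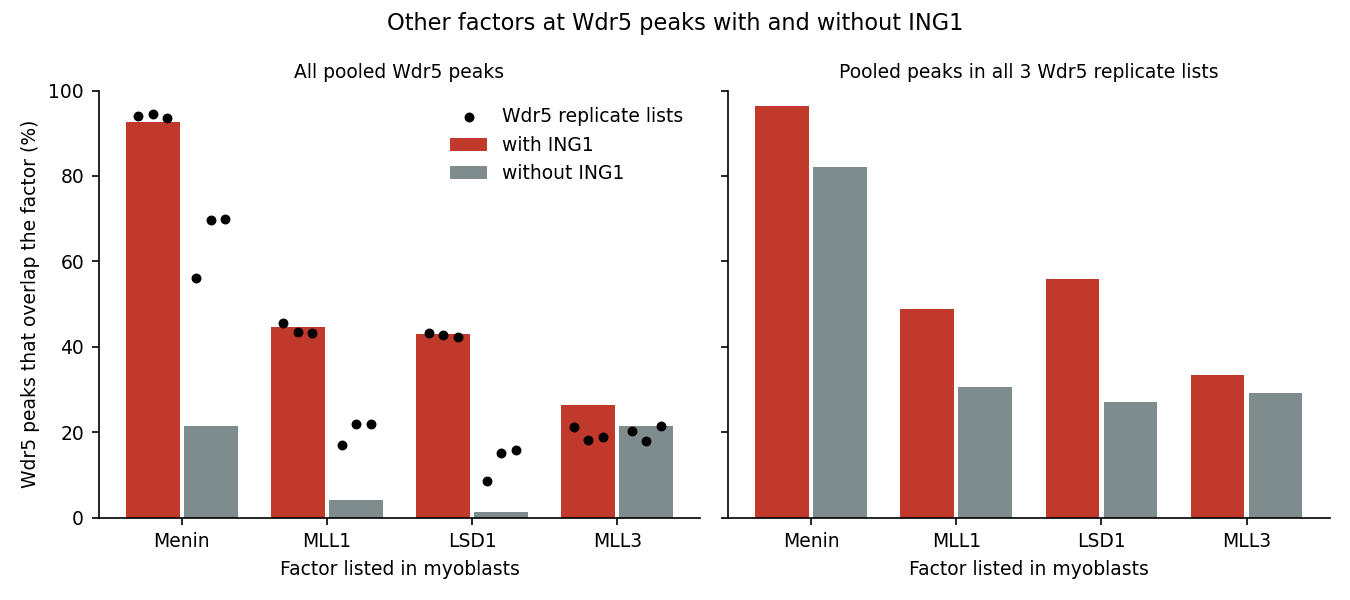
Share of Wdr5 peaks that overlap Menin, MLL1, LSD1 or MLL3 (%), with ING1 (red) and without (grey). Bars are all pooled Wdr5 peaks (left, black points give Wdr5 replicates 1, 2 and 3) and the pooled peaks in all 3 Wdr5 replicate lists (right); the replicate points without ING1 lie above the grey bars for Menin, MLL1 and LSD1, and the red and grey points of MLL3 overlap.

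The coverage by MLL3 around Wdr5 centres differed in shape between the classes. At pooled Wdr5 peaks with ING1, MLL3 covered 9.01% of centres and 15.8% of positions 10 kb away, a ratio of 0.57. At those without ING1 it covered 14.7% of centres and 11.1% at 10 kb, a ratio of 1.32. In Wdr5 replicates 1, 2 and 3 the ratio was 0.57, 0.46 and 0.49 with ING1 and 1.00, 0.76 and 0.86 without. The lower ratio with ING1 was thus present in each of the 3 lists (0.51 ± 0.057 against 0.87 ± 0.12, SD, n = 3). The excess at centres without ING1 was seen in the pooled list and in none of the replicates.

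The same count was made around ING1 centres. Wdr5 covered 80.3% of ING1 centres, 61.5% of positions 500 bp away, 33.9% at 1 kb, 11.6% at 2 kb and 4.42% at 10 kb. Menin covered 85.8% of ING1 centres and still 38.0% at 2 kb, MLL1 31.2% and 4.85%, LSD1 20.6% and 0.69%, and MLL3 10.6% and 12.0%. Around Wdr5 peaks with ING1 Menin covered 87.6% of centres and 38.1% at 2 kb. Around Wdr5 peaks without ING1 Menin covered 17.9% of centres and 7.98% at 2 kb. Among pooled peaks in all 3 Wdr5 lists the gap was smaller, with Menin on 92.0% of centres with ING1 and 75.2% without. In the Wdr5 replicates it covered 91.2% to 92.6% of centres with ING1 and 52.0% to 67.5% without.

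**Figure D5:**
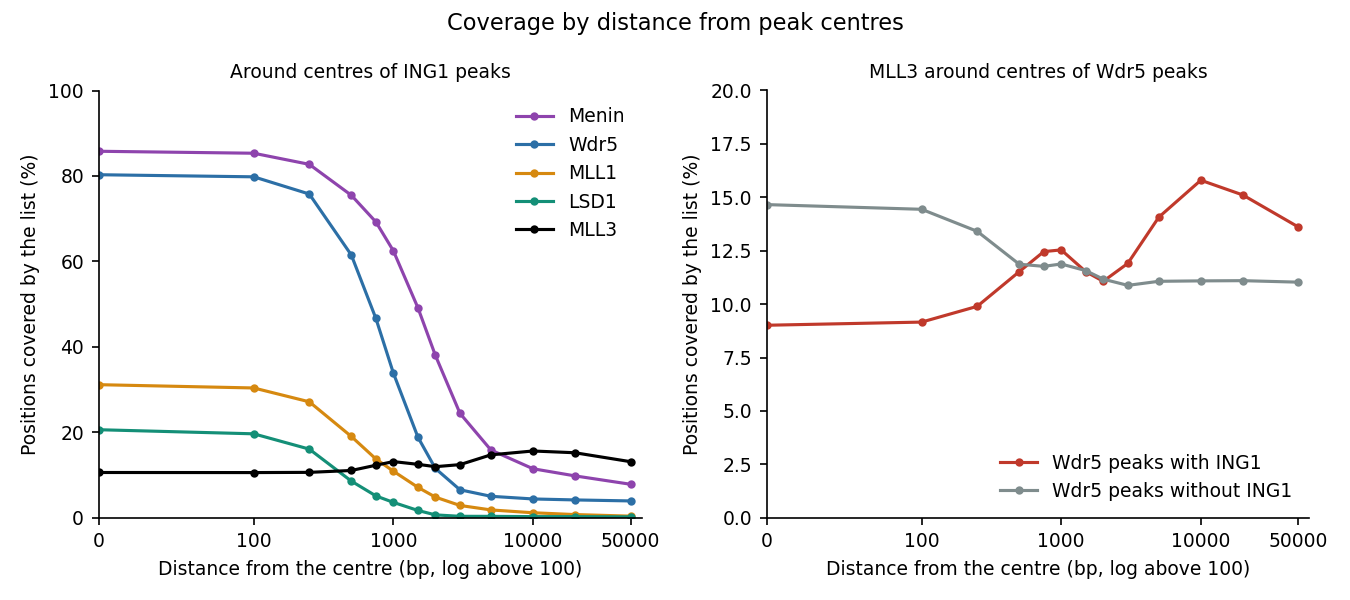
Share of positions covered by a peak list (%) at increasing distance from peak centres in bp, both sides joined, on an axis that is logarithmic above 100 bp. Left, 5 myoblast lists around pooled ING1 centres, where Wdr5 goes from 80.3% to 4.42% at 10 kb; right, MLL3 around pooled Wdr5 centres, 9.01% at the centre with ING1 (red) and 14.7% without (grey), with the red line below the grey up to 500 bp and above it from 3000 bp.

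ING1 was also counted by the combination of factors at a Wdr5 peak. It lay at 350 of the 40496 Wdr5 peaks with neither Menin, MLL1 nor LSD1 (0.86%) and at 1791 of the 10687 with Menin alone of these (16.8%). The share was 49.2% of 3006 with Menin and MLL1, 74.6% of 1758 with Menin and LSD1, and 84.8% of 1578 with all 3. In Wdr5 peaks of all 3 replicate lists these 5 shares had the same order with a narrower span, at 28.6%, 62.2%, 76.8%, 82.8% and 89.2%. Median Wdr5 width also grew over these 5 combinations, from 558 through 755, 1174 and 1496 to 1658 bp, and its part in the order was not tested.

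The share did not simply follow the number of factors. ING1 lay at 91 of the 161 Wdr5 peaks with LSD1 alone of the 3 (56.5%), above the share with Menin and MLL1, and at 25 of 29 (86.2%) where all 3 Wdr5 lists held the peak, above both pairs of factors with Menin. It lay at 23 of the 425 with MLL1 alone (5.41%) and at 8 of the 12 with MLL1 and LSD1. Median Wdr5 widths were 1260 bp with LSD1 alone, 680 bp with MLL1 alone and 1228.5 bp with MLL1 and LSD1. The part of width in these shares was not tested either, and some rest on few peaks.

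The individual lists of ING1 and Wdr5 were also compared directly for these factors. Menin lay at 90.9% and 92.3% of the 2 ING1 replicates and at 72.4%, 84.8% and 84.5% of the 3 Wdr5 replicates. MLL1 lay at 45.9% and 41.7% against 29.4%, 35.1% and 35.0%, and LSD1 at 46.6% and 42.8% against 23.6%, 32.0% and 32.1%. For each of the 3, both ING1 lists were above all Wdr5 lists. MLL3 lay at 15.5% and 17.1% of ING1 and at 20.7%, 18.2% and 19.9% of Wdr5 peaks, with both ING1 lists lower. Each of the 4 comparisons gave the smallest p the design allows (exact two-sided permutation p = 0.20, adjusted p = 0.30), so none passed the threshold of 0.05. With each list shortened to its 427 widest peaks the separation did not hold throughout. The Menin difference went from 11.0 to 0.62 points (exact permutation p = 1) and the LSD1 difference turned from 15.5 to -1.29 points. For MLL1 it went from 10.6 to 8.3 points (exact permutation p = 0.40). For MLL3 it widened from -3.31 to -14.6 points and kept the smallest p (exact permutation p = 0.20).

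ING1 peaks without Wdr5 were fewer and narrower, and they too had fewer partners. The 1291 had a median width of 570.0 bp against 764 bp for the 6823 with Wdr5. Menin, at 88.0% of all ING1 peaks, lay at 92.0% with Wdr5 and 66.8% without. MLL1 (38.1% of all ING1 peaks) lay at 41.8% and 18.4%, LSD1 (36.3%) at 39.8% and 17.6%, and MLL3 (18.8%) at 18.8% and 18.6%. In ING1 replicate 2 the same pairs were 93.7% and 79.4% for Menin, 43.5% and 24.7% for MLL1, and 44.2% and 30.3% for LSD1. ING1 replicate 1 had 31 peaks without Wdr5, of which 18 held Menin, 9 MLL1 and 8 LSD1.

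Most Wdr5 sites with ING1 in myoblasts were also listed for ING1 and Sin3A in myotubes. ING1 of myotubes overlapped 12.5% of all pooled Wdr5 peaks, 80.4% of those with myoblast ING1 and 4.14% of those without. By their titles both ING1 lists are of Flag-tagged protein, and the part of the shared tag was not tested. Sin3A, the scaffold of the deacetylase complex that holds ING1, overlapped 14.8% of all, 85.0% with ING1 and 6.08% without. LSD1 of myotubes overlapped 7.74% of all, 44.0% with and 3.27% without. In Wdr5 replicates 1, 2 and 3 Sin3A lay at 88.0%, 92.0% and 92.3% of peaks with ING1 and at 29.8%, 52.9% and 54.6% of those without, so the sets did not overlap. Among peaks in all 3 Wdr5 lists the myotube ING1 list lay at 92.0% with and 66.2% without myoblast ING1, and Sin3A at 94.3% and 72.3%.

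The same held from the ING1 side. ING1 of myotubes, at 72.2% of all myoblast ING1 peaks, lay at 78.4% with Wdr5 and 39.4% without. Sin3A (76.4% of all) lay at 83.1% and 41.1%, and LSD1 of myotubes (38.0% of all) at 41.5% and 19.2%.

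Chromosomes varied in how often the factors met. The share of Wdr5 peaks with ING1 ran from 6.69% on chromosome 10 to 20.2% on chromosome 7, with a median of 11.4%. The share of ING1 peaks at Wdr5 ran from 76.9% on chromosome 15 to 90.7% on chromosome 13. The median width of Wdr5 peaks with ING1 exceeded that of peaks without on 19 of 19 chromosomes, by 622 to 1084 bp.

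Regions were named by a fixed rule from 3 classes, in mm9 and without gene names, since no annotation of that build was used here. The first class, ING1 peaks at Wdr5 that met all 5 replicate lists, held 137 regions. Menin lay at 98.5% of them (88.0% of all pooled ING1 peaks), LSD1 at 63.5% (36.3%), MLL1 at 52.6% (38.1%) and MLL3 at 29.2% (18.8%). The widest lay on chromosome 3 from 58218719 to 58221848 (3130.0 bp). Pooled Wdr5 covered 92.8% of it, Menin all of it, MLL1 96.7% and LSD1 11.4%, and the ING1 centre lay 232 bp from the centre of its Wdr5 partner. ING1 replicate 1 covered 32.9% of it and replicate 2 covered 89.2%.

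The next 4 of this class were alike in their factors. Their positions were chr15:61816962-61819953, chr12:88222753-88225704, chr13:29043166-29046063 and chr8:47824450-47827213. Menin covered all and MLL1 at least 82.8% of each, LSD1 covered 22.0% to 61.1%, and MLL3 was on none of them. Centres of ING1 and Wdr5 were 362, 566, 118 and 822 bp apart in that order. The nearest and the farthest of these were at ING1 peaks of similar width, 2898 and 2764 bp.

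The second class, Wdr5 peaks in all 3 Wdr5 replicate lists that met no ING1 list of myoblasts, held 536 regions with a median width of 1388 bp. Menin lay at 78.9% of them, MLL1 at 28.2%, LSD1 at 23.3% and MLL3 at 29.7%, near the 82.1%, 30.6%, 27.1% and 29.3% given above for all 653 peaks in the 3 lists without pooled ING1. Over all pooled Wdr5 peaks the shares were 29.3%, 8.64%, 6.04% and 22.0%. The widest lay on chromosome 8 from 90806166 to 90809758 (3593 bp), with Menin on 97.2% of it, MLL1 on 8.13%, no LSD1 and no MLL3. Its nearest ING1 peak was 75097 bp away, yet ING1 of myotubes covered 43.7% and Sin3A 25.2% of it.

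ING1 of myotubes lay at 66.2% of the 653 peaks in all 3 Wdr5 lists without pooled ING1. It was on each of the other 4 regions of the second class, which were picked as the widest. Their positions were chr10:128357795-128361169, chr8:97226531-97229885, chr15:85434008-85437184 and chr11:120573613-120576774. The first of these 4 had a myoblast ING1 peak 184 bp beyond its edge, and the nearest to any of the other 3 was 35289 bp away. Myotube ING1 covered 51.2%, 47.8%, 22.1% and 29.9% of them. LSD1 of myoblasts was on the last alone, over 9.27%, and MLL3 was also there, over 38.5%.

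The third class, ING1 peaks that met no Wdr5 list, held 14 regions in both ING1 replicate lists and 332 in 1 of them. Menin lay at 80.9% of these 346 (88.0% of all pooled ING1 peaks), LSD1 at 32.1% (36.3%), MLL1 at 26.0% (38.1%) and MLL3 at 16.5% (18.8%). The widest of those in both lists lay on chromosome 2 from 152561953 to 152564142 (2190.0 bp), with Menin on all of it, MLL3 on 72.2% and LSD1 on 45.9% of it, no MLL1, and the nearest Wdr5 peak 2725 bp away. The regions chr11:116687557-116689500 and chr12:114252736-114254029 lay 712 and 236 bp from Wdr5 and held Menin and LSD1.

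The last 2 of this class differed from each other. At chr11:104092213-104093460 ING1 replicate 1 covered 52.6% and replicate 2 covered 72.7%, with no Menin, MLL1, LSD1, MLL3 or Wdr5 peak, and ING1 of myotubes covered 68.4%. At chr8:49074939-49076182 Menin covered the whole region, LSD1 55.9%, MLL1 23.9% and MLL3 18.2%, with Wdr5 14145 bp away.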

How the data were processed

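Peak lists of ChIP-seq samples were analysed: 2 ING1 and 3 Wdr5 replicate lists of myoblasts, the pooled lists that the authors made, and the other lists named above. The deposited files give other values than counts, namely the chromosome, left and right end of each peak in bp, per the file headers, with no height or p-value. Per the submitters' processing notes, the build was mm9 and the tools included bedtools 2.17.0, SAMtools 0.1.19 and Bowtie 0.12.9. How peaks were called and replicates pooled was not given in the sources used here. Input and RNA samples were not analysed here.

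Overlaps were computed with Python 3.11.15 and NumPy 2.4.6 on chromosomes 1 to 19, with 1 bp as shared, after a check on simulated intervals. Left ends were taken as 0-based, and printed starts are 1-based. A peak was paired with the overlapping peak of largest overlap. Intervals are exact binomial at 95%. Per-list values were compared by exact permutation over lists, adjusted by Benjamini-Hochberg over 6 measures. The named regions were the 5 widest of each class. The members, lists and classes were chosen with earlier results of these data known. Alternatives were other overlap rules, list lengths, chromosome X, replicate unions, omission of each replicate, a replicate block and classes of width and support.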

Additional observations from a re-analysis of the deposited data

How the results depend on the processing

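The share of ING1 peaks at Wdr5 was 81.5% with overlap of 50% of the shorter peak, 87.9% with peaks within 500 bp, 90.1% with the wider 50% of both lists, 71.9% with unions of the replicate lists, 42.6% with pooled peaks that met every replicate list (338 ING1 and 2571 Wdr5 peaks), 58.2% with Wdr5 shortened to the length of the ING1 list and 68.0% with centres within 500 bp. The share of Wdr5 peaks with ING1 was 33.4% with unions, 5.60% with peaks of every replicate list and 50.8% with the shortened list. The centre distance was 220.0 bp with 50% overlap, 243 bp with peaks within 500 bp, 178 bp with unions, 299.5 bp with the shortened list and 174 bp with centres within 500 bp. The width ratio in pairs was 0.65 with the wider 50%, 0.77 with unions and 0.66 with peaks of every replicate list. The width ratio of Wdr5 peaks with over without ING1 was 1.99, 1.47, 1.28 and, shortened, 1.16.

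In the same 4 settings (wider 50%, unions, every replicate list, shortened) the Menin difference was 60.4, 33.0, 6.27 and 34.8 points. The MLL1 difference was 25.8, 14.1 and 29.8 points in the last 3, and the LSD1 difference 46.1, 35.5 and 19.9 points in the first 3. With every replicate list, the class without ING1 also held Wdr5 peaks at other pooled ING1 peaks. This applies to the width ratio of 1.28 as well. The MLL3 difference was 3.00 points with 50% overlap, 1.57 with unions and 1.00 shortened. Within classes of width the differences were 42.8 (Menin), 29.9 (MLL1), 34.3 (LSD1) and -1.71 (MLL3), within classes of support 35.7, 26.1, 29.4 and 0.79, and with the factor on the Wdr5 centre 29.5 (MLL1), 16.1 (LSD1) and -5.65 (MLL3). The cause of these moves was not tested. Support classes, centre coverage and centres within 500 bp were added after the data were seen. Per list, with lists of 427 peaks, LSD1 turned to -1.29 points, Menin went to 0.62, MLL1 to 8.3 and MLL3 to -14.6.

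Leaving out 1 replicate from the unions gave 59.1 to 79.6% for ING1 at Wdr5 and 2.98% (without ING1 replicate 2) to 46.5% for Wdr5 with ING1. The distance was 175 to 189 bp, the ratio in pairs 0.53 to 0.93 and the ratio with over without ING1 1.28 to 1.51. Differences were 21.9 to 32.9 points (Menin, 21.9 without Wdr5 replicate 1 and 22.8 without ING1 replicate 2), 19.6 to 25.9 (MLL1), 28.0 to 35.6 (LSD1) and 0.26 to 2.49 (MLL3, 0.26 without Wdr5 replicate 1, 0.78 without Wdr5 replicate 2 and 2.49 without ING1 replicate 2). Per list, the ING1 minus Wdr5 difference ran from -6014.3 to -945.3 peaks (-945.3 without ING1 replicate 1, -6014.3 without ING1 replicate 2 and -2041 without Wdr5 replicate 1), from -86.7 to 35.3 bp of width (35.3 without ING1 replicate 1), and from 6.94 to 13.2 (Menin, 6.94 without Wdr5 replicate 1), 8.48 to 12.7 (MLL1), 12.7 to 17.4 (LSD1) and -4.13 to -2.49 points (MLL3). Where this left 1 list in an arm, the exact test has fewer arrangements.

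ING1 and Wdr5 share replicate numbers 1 and 2 alone, and nothing in the labels ties them. Deviations of same-numbered lists correlated at 0.29 and 0.16 over 13013 regions, and ING1 replicate 2 with Wdr5 replicate 3 at 0.18. With 2 ING1 lists the deviations of replicate 1 mirror those of replicate 2, so these values can neither show nor exclude a pairing. With the replicate block the differences were -4188.5 peaks, -33.0 bp, 13.01 points (Menin), 11.5 (MLL1), 16.9 (LSD1) and -3.18 (MLL3), and the block changed no call (exact p = 1 for the first pair of measures and 0.5, the smallest possible, for the other 4). Without read counts, depth limits what each list could show, and a site missing from a list may have been below its threshold.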
